A study of Mus musculus with 12 samples.

Results

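The 10 genes described here encode MAP kinase kinase kinases (MAP3Ks) and were taken by name: Map3k1, Map3k2, Map3k3, Map3k4, Map3k5, Map3k6, Map3k7, Map3k11, Map3k12 and Map3k14. All 10 were among the 13233 genes with values. RNA-Seq was performed on hernia-associated fibroblasts (HAFs), primary cells grown from the lower abdominal muscle (LAM) of male Aromhum mice, which carry a bacterial artificial chromosome transgene with the human aromatase gene and its own promoters on the FVB/N background. The 12 samples, 3 per group, were treated for 48 h. Vehicle cells received DMSO and then ethanol, and E2 was given at 10 nM with or without pretreatment with fulvestrant at 100 nM, which was also given without E2. Every group therefore shared the transgene, a single passage, an overnight starvation and medium with charcoal-stripped serum, and cultures from mice without the transgene were not analysed here. E2 is the main estrogen, and fulvestrant blocks its receptor ESR1 and lowers the amount of ESR1 protein. The sources used here do not say whether replicates 1, 2 and 3 came from separate mice, so the p-values measure only the spread between these samples, which may be technical.

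Map3k6 was chosen for its difference between E2 and E2 plus fulvestrant in these data. That comparison is therefore given as a description with no test for the 10 genes, and Map3k6 was tested only between fulvestrant and vehicle, which shares no sample with it. The other 9 genes were tested in the remaining comparisons as well. The values are normalized counts, in which the authors divided the reads of each gene by 1 factor per sample. The reads on the listed genes ranged from 18827792 to 44040507 per sample. Replicate 1 stood apart from replicates 2 and 3 in each group for several of the genes described below, so same-numbered samples were compared with each other. All 10 fibroblast markers on the list used here, among them Pdgfra, Col1a1 and Esr1, had values in each sample. Myogenic and adipocyte markers were not analysed here.

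MAP3Ks stand at the top of a kinase relay. A MAP3K phosphorylates a MAP kinase kinase (MAP2K), which phosphorylates a MAP kinase (MAPK) such as ERK, JNK or p38, and the MAPK then acts on transcription factors, including the Jun and Fos proteins that form AP-1. MAPK phosphatases of the Dusp family switch the last step off, and their genes are themselves switched on by MAPK activity. Map3k5 (ASK1) and Map3k6 (ASK2) are close relatives that bind each other and answer oxidative stress. Map3k7 (TAK1) passes on TGF-beta and cytokine signals, and Map3k14 (NIK) starts the alternative NF-kappaB pathway.

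RefSeq promoter sequences on GRCm38.p6, running from 250 bases before to 50 bases after a transcription start, were matched for 9 of the 10 genes, with 10 promoters in all because Map3k12 has 2. Map3k2 had no entry. Those of Map3k6, the gene with the largest difference, of its relative Map3k5, and of Map3k12, which lay lower in the fulvestrant groups, are shown 5′ to 3′ on the strand of the gene. They lie at chr4:133240568-133240867 on the plus strand, chr10:19934276-19934575 on the plus strand and chr15:102516955-102517254 on the minus strand. Capitals mark the spaced core of a glucocorticoid response element (ACANNNTGT) and the nuclear receptor half-site (AGGTCA on either strand).
Map3k6: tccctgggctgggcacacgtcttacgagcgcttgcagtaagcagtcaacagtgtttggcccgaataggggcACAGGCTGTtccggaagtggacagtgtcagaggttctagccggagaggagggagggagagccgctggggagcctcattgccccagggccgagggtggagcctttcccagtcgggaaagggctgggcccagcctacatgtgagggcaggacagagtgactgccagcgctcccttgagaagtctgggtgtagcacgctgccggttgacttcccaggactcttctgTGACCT
Map3k5: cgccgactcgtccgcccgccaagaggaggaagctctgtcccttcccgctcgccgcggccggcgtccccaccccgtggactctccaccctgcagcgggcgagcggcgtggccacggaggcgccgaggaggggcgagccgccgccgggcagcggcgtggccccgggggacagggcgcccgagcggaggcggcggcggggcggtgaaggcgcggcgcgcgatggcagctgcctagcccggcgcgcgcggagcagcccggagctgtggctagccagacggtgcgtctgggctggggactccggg
Map3k12: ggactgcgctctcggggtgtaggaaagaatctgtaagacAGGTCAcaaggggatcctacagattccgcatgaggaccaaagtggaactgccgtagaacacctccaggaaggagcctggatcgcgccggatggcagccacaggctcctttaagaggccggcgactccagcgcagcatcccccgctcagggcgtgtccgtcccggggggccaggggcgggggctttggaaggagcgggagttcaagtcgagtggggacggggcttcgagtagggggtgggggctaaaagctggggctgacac
In Map3k6 the spaced core ACAGGCTGT stood 179 bases before the start, and the half-site, read as TGACCT, ended the window 44 bases after the start. The half-site was present in 16.3% of the 32851 promoters of 300 bases, and among the 10 genes it was found in Map3k6 and Map3k12. The spaced core was present in 6.85% of all promoters and, among the 9 genes with a promoter, was found in Map3k6. The palindromic estrogen response element, GGTCA and TGACC with any 3 bases between them, held by 0.07% of all promoters, and the AP-1 site TGACTCA, held by 5.2%, matched in none of the 9 genes. The GC box GGGCGG matched in 6 of the 9 genes, not including Map3k6, against 35.7% of all promoters. All 5 motifs were searched on both strands and were chosen after the promoters had been seen. The spaced core and the half-site do not overlap in Map3k6. These matches describe letters in a window, and binding at them was not measured.

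Map3k6 (ENSMUSG00000028862, GRCm38 chromosome 4, 133240818 to 133252929) had about 4 times as much RNA in the fulvestrant groups as in the groups without it. Among the other 9 genes the largest difference in any comparison was 0.46 in size on the log2 scale. With vehicle its normalized counts were 104, 113 and 111 in replicates 1, 2 and 3. With E2 they were 101, 129 and 110. With E2 plus fulvestrant they were 588, 481 and 451, and with fulvestrant alone 517, 387 and 451. The 6 samples with fulvestrant thus all lay above the 6 without it, and the vehicle and E2 samples overlapped.

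**Figure D1:**
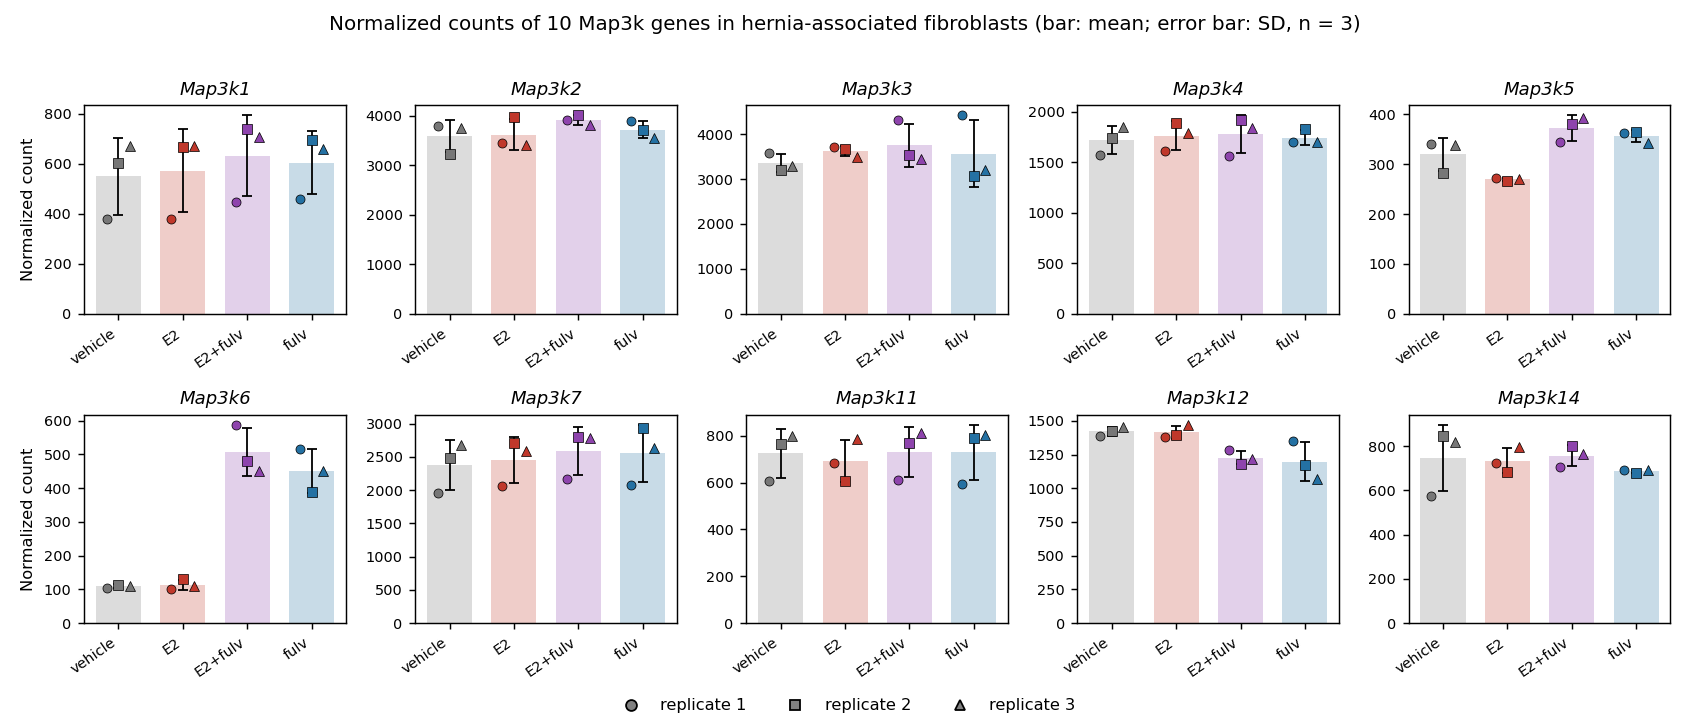
Normalized counts of the 10 Map3k genes (vertical axis, from 0) in vehicle, E2, E2 plus fulvestrant (E2+fulv) and fulvestrant (fulv) samples. Bars are means, error bars are SD over 3 samples, and circles, squares and triangles are replicates 1, 2 and 3. Map3k6 was between 101 and 129 in samples without fulvestrant and between 387 and 588 in samples with it, whereas Map3k1 and Map3k7 had their lowest value in replicate 1 of each group.

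Fulvestrant alone was compared with vehicle to see which genes respond to the antagonist when no E2 is added. Map3k6 rose from 109 ± 4.98 to 452 ± 65.1 normalized counts (SD, n = 3), a log2 difference of 2.03 (SE 0.15, 95% confidence interval 1.68 to 2.38, limma adjusted p = 0.00296 with the replicate number as a block). The same-numbered pairs differed by 2.31, 1.77 and 2.01. Of the 13233 genes only 5 had a larger rise. In this comparison 5.23% of all genes were called, that is, had an adjusted p under 0.05 and a fold change over 1.2, with 2.74% higher and 2.49% lower, and Map3k6 was the 1 called gene of the 10. Without the block no gene of the table was called (0.0%), and the adjusted p of Map3k6 was 0.122 (unadjusted p = 1.4e-05, a threshold of 0.05 being passed by 5.34% of genes). Without replicate 3 the difference was 2.04 with an adjusted p of 0.0521. A two-sided exact permutation test of its 3 values against 3 gave p = 0.1, the smallest that this design allows. In bulk samples, fewer cells of a type and less RNA per cell cannot be told apart.

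Between E2 and E2 plus fulvestrant, the comparison from which it was chosen, Map3k6 had 113 ± 14.6 and 507 ± 72.1 normalized counts (SD, n = 3), a log2 difference of -2.15 with pairs of -2.54, -1.89 and -2.02. This was the 4th lowest of the 13233 differences. E2 and vehicle differed by 0.045 on the log2 scale, with pairs on both sides of 0 (-0.04, 0.19 and -0.01). E2 plus fulvestrant exceeded fulvestrant alone by 0.17, with pairs of 0.19, 0.31 and -0.00081. The 2 groups with fulvestrant overlapped in their values.

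Map3k5 (chromosome 10, 19934472 to 20142753), the partner of Map3k6 in the response to oxidative stress, also had its higher levels with fulvestrant, at a much smaller scale. Its normalized counts were 340, 282 and 338 with vehicle and 271, 266 and 271 with E2. They were 344, 381 and 392 with E2 plus fulvestrant and 362, 365 and 342 with fulvestrant. The E2 samples were the 3 lowest of the 12, and those of both fulvestrant groups lay above all vehicle samples. E2 minus vehicle was -0.24 (SE 0.10, 95% confidence interval -0.47 to -0.01, limma adjusted p = 0.329), lower in 3 of 3 pairs. Fulvestrant minus vehicle was 0.16 (SE 0.12, 95% confidence interval -0.13 to 0.44, limma adjusted p = 0.497), higher in 3 of 3 pairs. Neither passed the test. E2 minus E2 plus fulvestrant was -0.46, with pairs of -0.34, -0.52 and -0.53. The difference in fulvestrant response with and without E2, fitted as an interaction over the 12 samples, was 0.30 (95% confidence interval -0.0013 to 0.61, limma adjusted p = 0.944, unadjusted p = 0.0508).

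Map3k12 (DLK; chromosome 15, 102497646 to 102517064), which drives JNK signaling and is best known from neurons, was lower in the fulvestrant samples. Its normalized counts were 1390, 1428 and 1453 with vehicle and 1380, 1396 and 1473 with E2. They were 1281, 1182 and 1218 with E2 plus fulvestrant and 1354, 1171 and 1069 with fulvestrant. The 6 samples with fulvestrant all lay below the 6 without it, with replicate 1 of fulvestrant closest to them. Fulvestrant minus vehicle was -0.25 (SE 0.10, 95% confidence interval -0.48 to -0.03, limma adjusted p = 0.182), with pairs of -0.04, -0.29 and -0.44, and did not pass the test. Without replicate 1 the difference was -0.36 with an adjusted p of 0.016, and in a fit on all 12 samples with the block the adjusted p was 0.045 at a fold of 1.19, which is under the threshold of 1.2 for a call. E2 minus E2 plus fulvestrant was 0.21, positive in 3 of 3 pairs. E2 minus vehicle was -0.0077 (95% confidence interval -0.12 to 0.11, limma adjusted p = 0.959). Groups that did not overlap between fulvestrant and vehicle were thus seen for Map3k5, Map3k6 and Map3k12, 3 of the 10 genes, against 11.1% of all genes.

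Map3k1 (MEKK1), which feeds JNK and ERK signaling, varied more with the replicate number than with treatment. It had 377, 604 and 670 normalized counts with vehicle and 380, 667 and 669 with E2. It had 445, 741 and 709 with E2 plus fulvestrant and 461, 694 and 658 with fulvestrant. Replicate 1 lay below the mean of replicates 2 and 3 by between 0.55 and 0.81 on the log2 scale in the 4 groups. Fulvestrant minus vehicle was 0.15 (95% confidence interval -0.09 to 0.40, limma adjusted p = 0.434).

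Map3k7, the TGF-beta-activated kinase, had the same kind of split. Its normalized counts were 1955, 2485 and 2687 with vehicle and 2060, 2711 and 2591 with E2. They were 2170, 2796 and 2792 with E2 plus fulvestrant and 2085, 2936 and 2642 with fulvestrant. Replicate 1 was the lowest in each group and lay below the mean of replicates 2 and 3 by between 0.36 and 0.42 on the log2 scale. Fulvestrant minus vehicle was 0.10 (95% confidence interval -0.08 to 0.29, limma adjusted p = 0.495), and E2 minus vehicle was 0.049 (95% confidence interval -0.07 to 0.17, limma adjusted p = 0.698).

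Map3k2 and Map3k3 (MEKK2 and MEKK3), which act on the MAP2K5 and ERK5 branch, were the 2 members with the highest normalized counts. Map3k2 ranged from 3230 to 4012 over the 12 samples, and Map3k3 from 3063 to 4419. In Map3k3 replicate 1 was the highest of each group, with 3584, 3710, 4307 and 4419 in vehicle, E2, E2 plus fulvestrant and fulvestrant. E2 minus vehicle for Map3k3 was 0.11 (95% confidence interval -0.0051 to 0.22, limma adjusted p = 0.361), positive in 3 of 3 pairs, and for Map3k2 it was 0.011 (95% confidence interval -0.19 to 0.21, limma adjusted p = 0.968).

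Map3k4 (MEKK4), which is activated by Gadd45 proteins, ranged from 1567 to 1923 normalized counts, and its fulvestrant minus vehicle difference was 0.022 (95% confidence interval -0.16 to 0.21, limma adjusted p = 0.902). Map3k11 (MLK3), which acts upstream of JNK, ranged from 595 to 814, and its difference was 0.0083 (95% confidence interval -0.19 to 0.21, limma adjusted p = 0.969). Map3k14 ranged from 576 to 848, and its difference was -0.10 (95% confidence interval -0.40 to 0.20, limma adjusted p = 0.703). Of the exon sequence of Map3k14, 2.1% lies in exons of 1700028N14Rik on the same strand, and the exons of the other 9 genes are shared with no gene on their strand. In these 3 genes the vehicle and fulvestrant values overlapped.

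**Figure D2:**
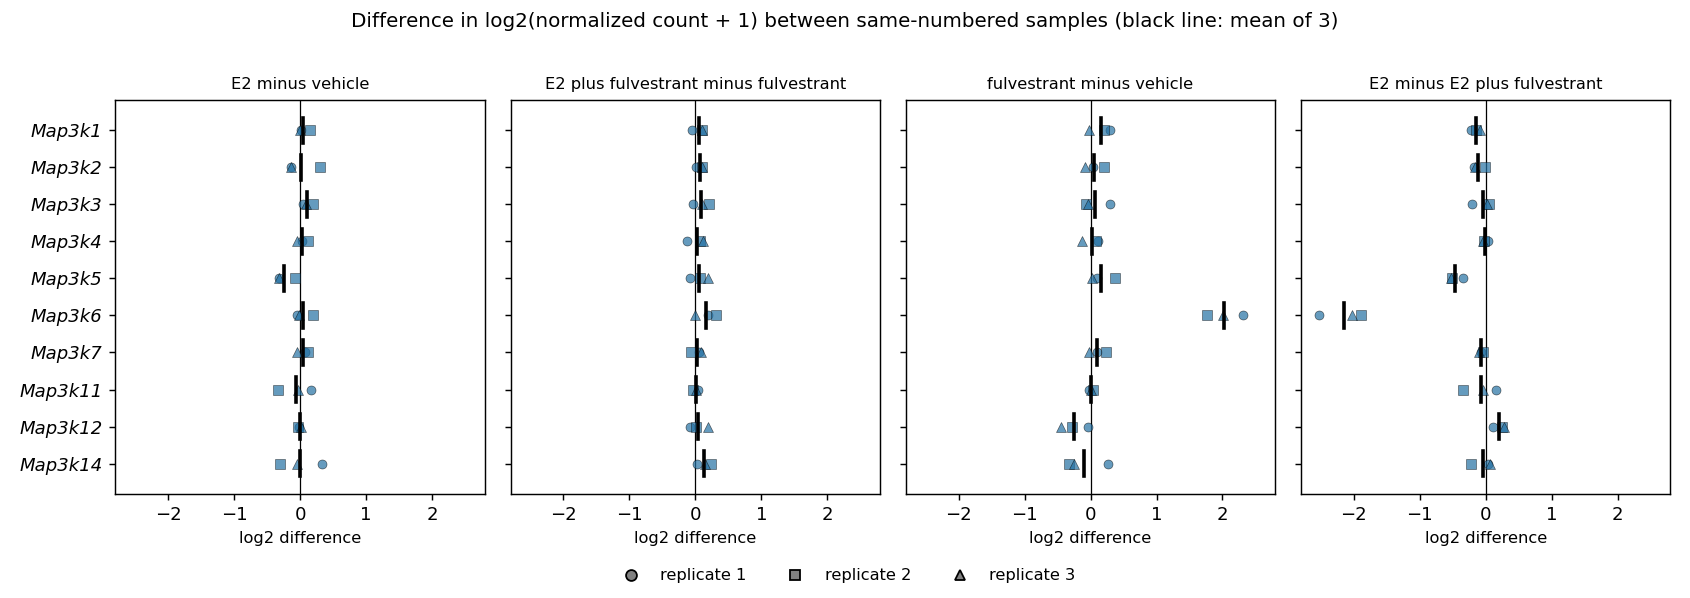
Differences in log2(normalized count + 1) between samples with the same replicate number (horizontal axis) for the 10 genes in 4 comparisons. Symbols are the 3 pairs and black lines their mean. Map3k6 stands at 2.03 for fulvestrant minus vehicle and -2.15 for E2 minus E2 plus fulvestrant, and the means of the other 9 genes lie between -0.46 and 0.21 in the 4 panels.

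E2 alone was compared with vehicle to see which genes respond to the hormone. Between E2 and vehicle none of the 9 tested genes was called by limma, against 0.431% of all genes, and 1 (Map3k5) had an unadjusted p under 0.05, against 14.5% of all genes. The median log2 difference of these 9 genes was 0.011, equal at this precision to the 0.011 of all genes. Map3k5 was the 1 gene of the 10 whose E2 and vehicle samples did not overlap, against 5.19% of all genes.

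Adding E2 to fulvestrant was compared with fulvestrant alone to see whether E2 acts when its receptor is blocked. None of the 9 tested genes was called by limma, against 0.0% of all genes, and 0 of the 9 had an unadjusted p under 0.05, against 3.9% of all genes. The differences of all 10 genes were positive, from 0.0052 (Map3k11) to 0.17 (Map3k6), with a median of 0.056 against 0.0049 over all genes. Those of Map3k4, Map3k5, Map3k7, Map3k11 and Map3k12 changed sign when a replicate number was left out. Map3k14 was the 1 gene without overlap, at 707, 802 and 764 with E2 plus fulvestrant and 692, 679 and 691 with fulvestrant, against 2.42% of all genes. Its difference was 0.14 (SE 0.07, limma adjusted p = 0.998). No interaction of E2 and fulvestrant was called for the 9 genes, against 0.0% of all genes, and 0 of the 9 had an unadjusted p under 0.05, against 3.79%. Between E2 and E2 plus fulvestrant, described without a test, 9 of the 10 differences were negative, with a median of -0.075 against -0.012 over all genes. The sign of Map3k3 turned without replicate 1, those of Map3k11 and Map3k14 without replicate 2, and that of Map3k4 without replicate 3 and under quantile normalization and CPM.

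Among the 10 genes Map3k6 had the least RNA per length of exon without fulvestrant. Per kb of exon sequence, vehicle samples had 836 ± 48.8 normalized counts of Map3k3 (SD, n = 3), 370 ± 58.8 of Map3k7 and 258 ± 22.8 of Map3k2. Map3k4 (169 ± 13.6), Map3k11 (165 ± 23.7) and Map3k12 (158 ± 3.55) followed, and these neighbors overlapped in their values. Map3k14 had 114 ± 22.9, Map3k1 73.9 ± 20.6 and Map3k5 52.6 ± 5.41 per kb, each overlapping with the next. Map3k6 had 23.7 ± 1.08 per kb and lay below all samples of Map3k5, at the 8.9th percentile of all genes. With fulvestrant Map3k6 reached 98.1 ± 14.1 per kb and took rank 8 of the 10, overlapping with Map3k14 (105 ± 1.05) and Map3k1 (81.1 ± 16.9). Its share of the summed per-kb level of the 10 genes was 1.07% ± 0.0409 with vehicle, 1.07% ± 0.101 with E2, 4.46% ± 0.612 with E2 plus fulvestrant and 4.14% ± 0.457 with fulvestrant (SD, n = 3).

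**Figure D3:**
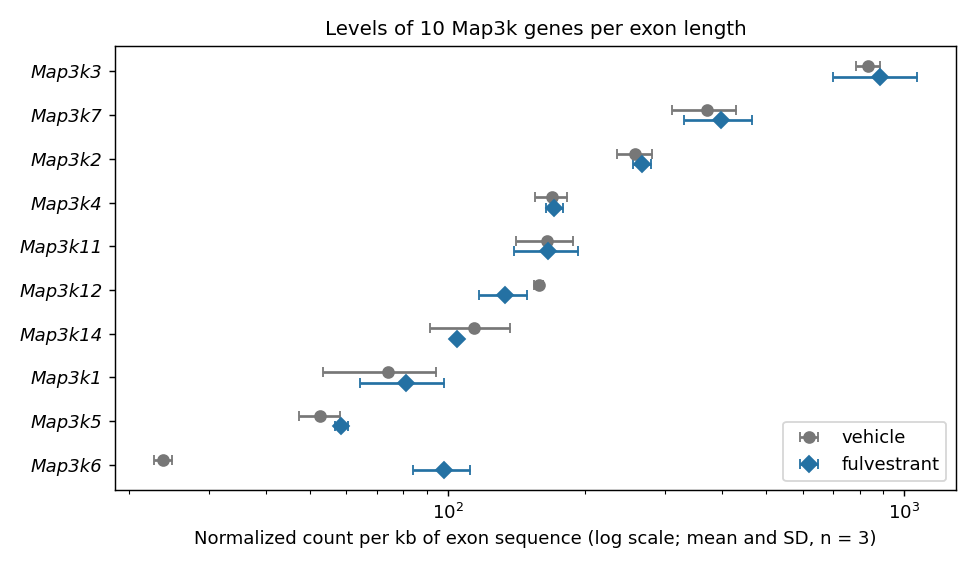
Normalized counts per kb of exon sequence (horizontal axis, log scale) of the 10 genes with vehicle (circles) and fulvestrant (diamonds), ordered by the vehicle level. Points are means and bars are SD over 3 samples. Map3k6 moved from 23.7 to 98.1 per kb while the order of the first 7 genes was the same with vehicle and fulvestrant.

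Genes that act with the MAP3Ks were read from lists of 100 genes, of which 89 were analysed. Between fulvestrant and vehicle 14 of the 89 rose and 1 fell, against 2.74% of all genes higher and 2.49% lower. Of the 14, 8 were at the output end of the relay. Of 17 MAPK-activated kinases and AP-1 factors 5 rose, namely Fosl1, Atf3, Jun, Egr1 and Jund, and none fell. Egr1, a zinc finger factor induced by ERK signaling, is not itself a part of AP-1. Fosl1, a Fos-family partner of Jun, rose by 1.21 (SE 0.10, limma adjusted p = 0.00296), the stress-induced factor Atf3 by 1.03 (SE 0.15, adjusted p = 0.0145) and Jun by 0.93 (SE 0.18, adjusted p = 0.0333) on the log2 scale. Of 11 MAPK phosphatases 3 rose, with log2 differences of 1.38 for Dusp1 (SE 0.23, adjusted p = 0.0209), 0.84 for Dusp8 (SE 0.15, adjusted p = 0.0248) and 0.65 for Dusp6 (SE 0.08, adjusted p = 0.00854). Dusp1 acts mainly on p38 and JNK, and Dusp6 on ERK.

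These output genes also differed by replicate number. Fosl1 had 109, 1099 and 1089 normalized counts with vehicle and 224, 2780 and 2601 with fulvestrant, so replicate 1 was far below the others in both groups. Dusp1 had 196, 1586 and 1472 with vehicle and 892, 2895 and 3135 with fulvestrant. Each pair rose, but the groups overlapped. The 15 calls became 28 without replicate 1, 2 without replicate 2, 0 without replicate 3, 2 without the variance trend and 0 without the replicate block, while the share of all genes called went from 5.23% to 16.7%, 0.756%, 0.151%, 0.786% and 0.0%.

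Among the 58 genes at the upper levels of the relay and among its partners 6 rose and 1 fell, against 2.74% and 2.49% of all genes, with 19 at an unadjusted p under 0.05. None of 11 other MAP3K-level kinases was called between fulvestrant and vehicle by limma, 1 of them with an unadjusted p under 0.05, against 21.8% of all genes. Of 7 MAP2K genes Map2k3, which activates p38, rose by 0.44 (SE 0.08, limma adjusted p = 0.0265). Of 11 MAPK genes Mapk6 (ERK3) rose by 0.63 (SE 0.12, adjusted p = 0.0358), and of 6 MAP4K genes Map4k4 rose by 0.48 (SE 0.08, adjusted p = 0.019). Among 23 partners and scaffolds, Gadd45g, of the family that activates Map3k4, rose by 0.91 (SE 0.16, adjusted p = 0.0238). Txn1, the thioredoxin that holds Map3k5 inactive, rose by 0.48 (SE 0.09, adjusted p = 0.0263). Mapk8ip1, the JIP1 scaffold of Map3k12 and JNK, fell by 0.52 on the log2 scale (SE 0.10, adjusted p = 0.0308). The 3 genes of the alternative NF-kappaB branch downstream of Map3k14 were not called, with 0 at an unadjusted p under 0.05. Gadd45g was also higher with E2 than with vehicle, at 417, 410 and 401 normalized counts against 257, 311 and 329. It was not called in that comparison.

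Between E2 and E2 plus fulvestrant 2 of the 89 genes were higher with E2 and 19 lower, against 4.07% and 4.6% of all genes. The lower genes included 7 of the 17 MAPK-activated kinases and AP-1 factors, with Fosl1 at -1.43 (SE 0.17, limma adjusted p = 0.00517), Atf3 at -1.06 and Jun at -0.81. They also included 6 of the 11 phosphatases, with Dusp1 at -1.34 (SE 0.23, adjusted p = 0.0159), Dusp5 at -0.99 and Dusp14 at -0.90. Map3k8 (TPL2), the other MAP3K-level kinase called, was at -0.53 (SE 0.10, adjusted p = 0.0258), with 368, 352 and 405 normalized counts with E2 and 466, 596 and 576 with E2 plus fulvestrant. The 2 genes higher with E2 were Gadd45b (0.44, adjusted p = 0.0179) and Mapk8ip1 (0.38, adjusted p = 0.0219). The 2 comparisons share no sample, and 12 genes were called in both, which is 80.0% of the 15 and 57.1% of the 21, each in the same direction relative to fulvestrant. Over all genes 538 were called in both, which is 77.7% of 692 and 46.9% of 1148. Without the replicate block, when 0.0605% of all genes were called, 0 of the 89 were called, without replicate 3, with 2.65% of all genes called, there were 4, and without the variance trend, with 1.65% called, 2. Between E2 and vehicle, and between E2 plus fulvestrant and fulvestrant, none of the 89 was called by limma, against 0.431% and 0.0% of all genes, with 11 and 6 genes at an unadjusted p under 0.05, against 14.5% and 3.9% of all genes.

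**Figure D4:**
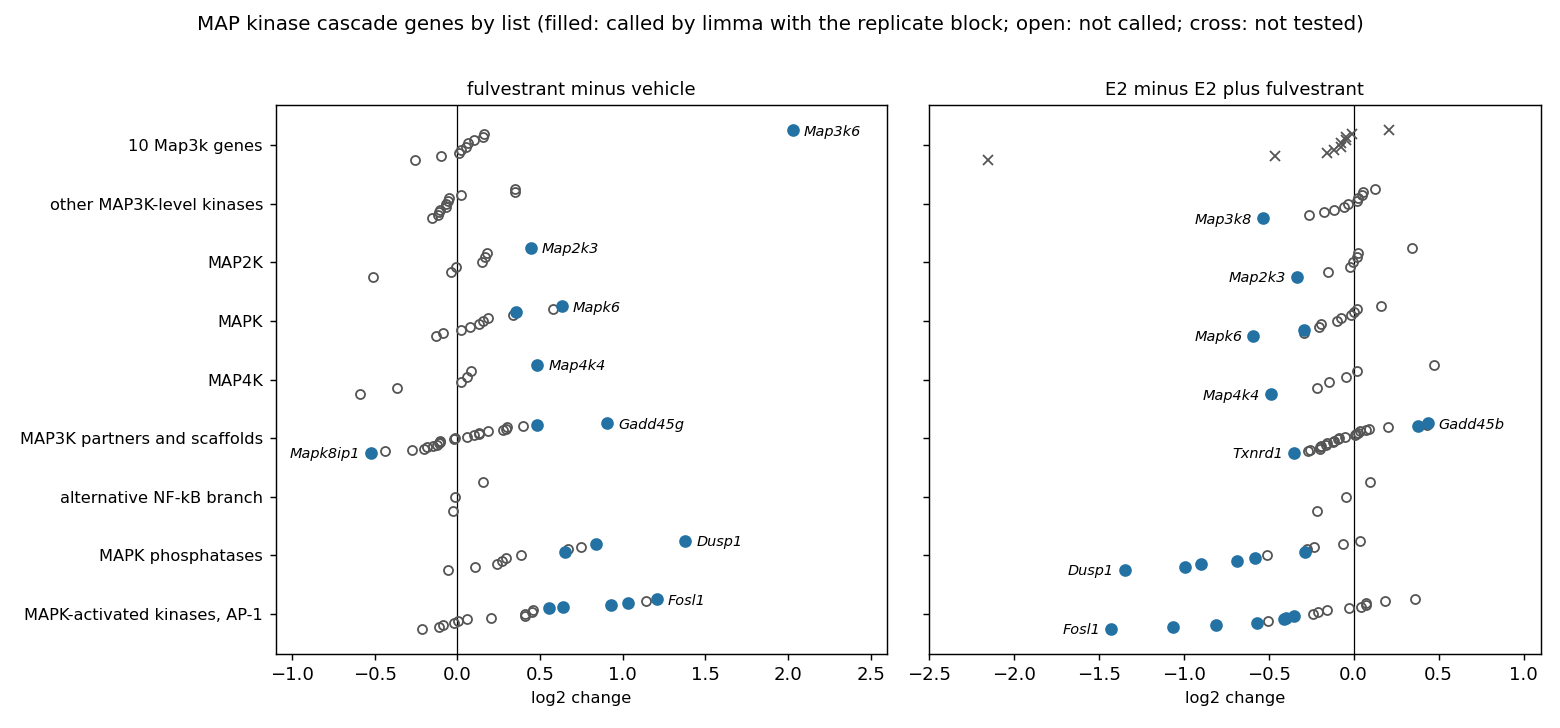
Log2 differences (horizontal axis) of the 10 Map3k genes and of 89 other MAP kinase cascade genes, grouped by list, for fulvestrant minus vehicle and E2 minus E2 plus fulvestrant. Filled points were called by limma with the replicate block, open points were not, and crosses were not tested. The called phosphatase and AP-1 genes lie to the right with fulvestrant, up to 1.38 for Dusp1, and to the left in E2 minus E2 plus fulvestrant, down to -1.43 for Fosl1.

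The genes whose levels followed Map3k6 most closely over the 12 samples, with each replicate number centered on its own mean, were Uvrag (Pearson r = 0.994), Nampt (0.993), Ctla2a (0.992), Actn1 (0.992) and Map2 (0.991), among 11274 genes with a mean of at least 100. AW551984 was the most opposite, at -0.991. Uvrag, an autophagy and endosome protein, had 1649 ± 87.4 normalized counts with vehicle, 1653 ± 78.3 with E2, 2580 ± 360 with E2 plus fulvestrant and 2520 ± 355 with fulvestrant (SD, n = 3). Actn1, an actin cross-linker, had 7657 ± 542, 7665 ± 225, 14265 ± 1435 and 14680 ± 1014 in the same order. Within the family, r to Map3k6 was 0.81 for Map3k1, 0.77 for Map3k5 and -0.80 for Map3k12. The others were weaker, at 0.69 for Map3k7, 0.50 for Map3k2, 0.39 for Map3k3 and 0.17 for Map3k4. Map3k11 was at 0.11 and Map3k14 at -0.07. These values are a description over 12 samples that share treatment groups and replicate numbers.

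Among the cell type markers, the summed normalized count of the 10 fibroblast genes was 487380 to 552350 with vehicle and 391540 to 459609 with fulvestrant, the groups in which Map3k6 differed. Most of this sum came from the matrix genes Col1a2, Col3a1, Dcn and Col1a1, with vehicle means of 160241, 111847, 80568 and 62957. Esr1, which encodes the receptor that fulvestrant binds, changed by -1.46 (SE 0.17, limma adjusted p = 0.00757) and the collagen-binding Lum by -1.18 (SE 0.13, adjusted p = 0.00653) between fulvestrant and vehicle, and these were the 2 called of the 10, against 2.49% of all genes called lower. Of the 8 others 7 had negative differences, and Vim, an intermediate filament gene, had 51177 normalized counts with vehicle and 62264 with fulvestrant, a difference of 0.29 (SE 0.14, adjusted p = 0.29), positive in 3 of 3 pairs. The smooth muscle and pericyte markers Myh11, Cspg4 and Mcam, 3 of the 4 listed, summed to 2163 to 3316 with vehicle and 1977 to 4303 with fulvestrant, mostly from Cspg4. Myh11, the smooth muscle myosin, had 30.9, 8.70 and 13.4 normalized counts with vehicle and 68.4, 49.6 and 16.2 with fulvestrant, a difference of 1.25 (SE 0.41, limma adjusted p = 0.139), positive in 3 of 3 pairs. Mcam differed by -0.31 (SE 0.16, adjusted p = 0.309), negative in 3 of 3 pairs. Tek, 1 of 4 endothelial markers, ranged from 58.4 to 277 and from 70.6 to 193, and Cd68, 1 of 4 leukocyte markers, from 49.6 to 84.4 and from 66.3 to 88.4 in these groups. Their part in the Map3k6 difference was not tested.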

How the data were processed

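RNA-Seq values of 12 samples of cultured mouse HAFs were read from a table of the whole series. The deposited table holds a normalized signal, the normalized count of a gene in a sample, made by the authors by trimming reads (Trimmomatic 0.39), aligning them to mm10 (STAR 2.5.2), counting them per gene and strand (HTSeq 0.13.5), removing counts under 10 and normalizing by DESeq2 1.37. The versions come from the submitters' processing notes. The text of the study also names a batch adjustment, but samples with the same replicate number still deviated together from their group means (correlation across genes from 0.63 to 0.92, mean 0.76, over 18 pairs of samples, against -0.86 to 0.79, mean -0.29, over 36 pairs with different numbers), so the numbers in the labels were taken to pair the samples and were used as a block. Whole reads worked back from the values gave the depth per sample, and no count test was run on them. No gene had fewer than 10 reads in any sample, and genes below that were not analysed here.

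Log2(value + 1) was fitted with limma 3.58.1 in R 4.3.3 (eBayes with a variance trend) on the 6 samples of the groups compared and all 13233 genes, with Benjamini-Hochberg adjustment over them. Differences on this scale are understated for low genes. The interaction was fitted on all 12 samples and called on adjusted p alone. Groups came from the submitters' labels. The fit was tested on simulated data. Python 3.11.15 with pandas 2.3.3, numpy 2.4.6, scipy 1.17.1 and matplotlib 3.10.9 made the tables and plots. Levels per kb used exon lengths of GENCODE M21 on GRCm38.

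The members, the pathway lists and the markers were chosen with earlier results of these data known. Named were all 10 members; from each pathway list up to 3 called genes in either direction, taken by size of change, of fulvestrant minus vehicle or E2 minus E2 plus fulvestrant; and the 5 genes most like Map3k6 and the 1 least like it. Egr1 and Jund, the rest of a count of 5, Lum, Esr1, Vim, Myh11, Cspg4 and Mcam among the markers, were named after their values were seen. Some genes that fall under these rules are not reported here. Alternatives were the fit without the block, all 12 samples in 1 fit, pseudocounts of 0.5 and 10, a mean of at least 100, quantile normalization, CPM, no variance trend, no fold threshold, and dropping 1 replicate number at a time.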

Additional observations from a re-analysis of the deposited data

How the results depend on the processing

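The rise of Map3k6 with fulvestrant lay between 1.75 and 2.16 on the log2 scale under the 12 alternatives, with limma adjusted p from 4.0e-06 to 0.122. It passed the threshold in each of them except the fit without the replicate block (2.03, adjusted p = 0.122) and the one without replicate 3 (2.04, 0.0521). Leaving out 1 replicate number gave 1.89 to 2.16. In the tested comparisons, dropping the block changed no other call of a member. A count test on reads was planned and was not run.

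Counts of calls moved more. Without the replicate block, pairing dropped, the 10 genes had 0 calls between fulvestrant and vehicle, and the other 89 pathway genes had 0 there and 0 between E2 and E2 plus fulvestrant. Without the variance trend the pathway counts were 2 and 2, and with all 12 samples and the block the first was 31, when 12.5% of all genes were called. Leaving out 1 replicate number gave 0 to 2 calls among the 10 genes, 0 to 28 pathway calls between fulvestrant and vehicle (0.151% to 16.7% of all genes), 4 to 23 between E2 and E2 plus fulvestrant (2.65% to 14.8%), 0 to 3 between E2 and vehicle (0.0453% to 2.11%), and 0 to 1 between E2 plus fulvestrant and fulvestrant (0.0% to 1.11%). A fit without the block on all 12 samples was added after seeing the data. It called 0.544% of all genes between fulvestrant and vehicle and 0.521% between E2 and E2 plus fulvestrant.

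Of 480 recomputed changes of single members, 32 changed sign, none with a size above 0.143, of which 25 were of tested changes, with an adjusted p of at least 0.25, and 7 of changes described without a test. For E2 minus vehicle, Map3k2 was at -0.0101 with quantile normalization and -0.0200 with CPM, and leaving out 1 replicate number gave -0.14 to 0.084 for Map3k2, -0.0086 to 0.076 for Map3k4, -0.18 to 0.074 for Map3k11, -0.021 to 0.0048 for Map3k12 and -0.18 to 0.14 for Map3k14. For fulvestrant minus vehicle, Map3k4 was at -0.00497 with quantile normalization and -0.018 with CPM and Map3k11 at -0.0305 with CPM, and leaving out 1 number gave -0.023 to 0.12 for Map3k2, -0.055 to 0.13 for Map3k3, -0.023 to 0.095 for Map3k4, -0.0095 to 0.026 for Map3k11, -0.36 to -0.16 for Map3k12 and -0.28 to 0.0094 for Map3k14. For E2 plus fulvestrant minus fulvestrant, Map3k11 was at -0.0012 with quantile normalization and -9.0e-05 with CPM, and leaving out 1 number gave -0.026 to 0.093 for Map3k4, -0.0044 to 0.13 for Map3k5, -0.0067 to 0.068 for Map3k7, -0.012 to 0.027 for Map3k11 and -0.033 to 0.10 for Map3k12. Without a test, Map3k6 for E2 minus vehicle was at -0.029 without replicate 2, and for E2 minus E2 plus fulvestrant Map3k3 was at 0.040 without replicate 1, Map3k4 at 0.017 with quantile normalization, 0.0056 with CPM and 0.0074 without replicate 3, and Map3k11 at 0.056 and Map3k14 at 0.046 without replicate 2. The causes were not tested.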
